A study of Mus musculus with 6 samples.

Results

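The set described here is 10 genes that regulate transcription in spermatocytes and spermatids: Crem, Fhl5, Rfx1, Rfx2, Rfx3, Rfx4, Mybl1, Brdt, Tcfl5 and Sox30. They were chosen by gene symbol, and all 10 were found among the 21786 symbols counted in all 6 libraries. Polyadenylated RNA of whole mouse testes was sequenced. Per the labels, 3 libraries came from Stra8 -/- males aged 1 year, whose testes were grossly enlarged and made up mostly of cells resembling type A spermatogonia, and 3 from Stra8 +/+ males aged 2 to 4 months. Both genotypes were on a C57BL/6 background, and each library came from the whole testis of 1 male. Age and enlargement followed genotype in every library, so the effects of genotype, age and enlargement cannot be told apart.

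Germ cells that leave mitosis pass through the long prophase of meiosis as spermatocytes, divide to haploid round spermatids and then elongate into sperm. A relay of transcription factors accompanies these steps. MYBL1 (A-MYB) and the bHLH factor TCFL5 act in pachytene spermatocytes, together with BRDT, a testis-specific reader of acetylated histones. SOX30, an HMG-box factor, RFX2, a winged-helix factor of ciliary genes, and CREM, a cAMP-responsive bZIP factor with its LIM-only coactivator FHL5 (ACT), act in late spermatocytes and round spermatids. STRA8 is switched on by retinoic acid and starts meiosis in germ cells, so it acts upstream of all these steps. Stra8 reads do not check the labels here: the gene stood at 21.2, 23.7 and 18.1 CPM in Stra8-deficient and 18.7, 18.6 and 17.1 CPM in wild-type libraries (0.21 ± 0.21; edgeR, adjusted p = 0.384), and which part of it was deleted is not given in the labels.

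The promoters of 8 of the 10 genes were at hand as 300-base windows from RefSeq on build GRCm38.p6, running from 250 bases before to 50 bases after an annotated start. They are shown because they let the letters shared by Rfx1, Rfx2 and Rfx3, and the contrast with Fhl5, be seen directly. Capitals mark each match, on either strand, to the MYB core CAACNG or to the half-site of the RFX X-box, GTTGCC. The windows are from chr8:84066586-84066885, plus strand (Rfx1), chr17:56830959-56831258, minus strand (Rfx2), chr19:28011117-28011416, minus strand (Rfx3), chr2:180642642-180642941, minus strand (Tcfl5) and chr4:25242803-25243102, minus strand (the first of both windows of Fhl5), each read 5′ to 3′ on the gene's strand.
Rfx1: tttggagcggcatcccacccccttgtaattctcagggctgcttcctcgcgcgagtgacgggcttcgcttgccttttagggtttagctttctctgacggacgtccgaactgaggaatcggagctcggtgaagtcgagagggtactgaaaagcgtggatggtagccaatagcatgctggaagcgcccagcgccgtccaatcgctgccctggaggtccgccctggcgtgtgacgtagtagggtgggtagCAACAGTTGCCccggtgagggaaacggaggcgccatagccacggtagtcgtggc
Rfx2: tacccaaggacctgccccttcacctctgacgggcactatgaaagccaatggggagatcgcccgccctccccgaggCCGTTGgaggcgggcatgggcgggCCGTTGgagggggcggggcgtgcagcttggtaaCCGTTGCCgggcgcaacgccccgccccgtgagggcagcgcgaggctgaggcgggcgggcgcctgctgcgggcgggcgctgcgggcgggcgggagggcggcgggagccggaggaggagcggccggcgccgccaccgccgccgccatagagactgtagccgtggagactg
Rfx3: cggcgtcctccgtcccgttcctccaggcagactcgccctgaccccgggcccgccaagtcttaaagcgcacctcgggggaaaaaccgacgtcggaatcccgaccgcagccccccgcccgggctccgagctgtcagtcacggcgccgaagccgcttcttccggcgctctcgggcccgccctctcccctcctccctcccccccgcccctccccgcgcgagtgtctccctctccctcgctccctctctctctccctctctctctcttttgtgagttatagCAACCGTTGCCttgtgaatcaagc
Tcfl5: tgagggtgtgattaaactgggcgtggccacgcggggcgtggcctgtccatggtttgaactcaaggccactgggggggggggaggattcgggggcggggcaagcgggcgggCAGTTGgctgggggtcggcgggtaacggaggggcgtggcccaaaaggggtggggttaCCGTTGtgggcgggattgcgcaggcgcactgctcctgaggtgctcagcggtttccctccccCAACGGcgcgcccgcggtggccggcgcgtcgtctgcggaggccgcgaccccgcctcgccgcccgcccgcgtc
Fhl5: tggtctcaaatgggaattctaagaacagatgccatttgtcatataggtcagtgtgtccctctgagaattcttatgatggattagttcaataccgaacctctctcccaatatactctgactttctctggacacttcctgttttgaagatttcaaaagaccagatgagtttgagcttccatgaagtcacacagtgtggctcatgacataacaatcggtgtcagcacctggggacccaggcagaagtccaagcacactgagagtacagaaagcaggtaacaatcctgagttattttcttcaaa
In Rfx1, Rfx2 and Rfx3 the X-box half-site overlapped a MYB core by the letters GTTG, forming CNGTTGCC. Each held further MYB cores: CAACAG 4 bases before the start in Rfx1, CAACCG 26 bases after it in Rfx3, and a pair in Rfx2. The joined letters lay 1 base before the start in Rfx1, 118 bases before it in Rfx2 and 29 bases after it in Rfx3. Of 32851 windows of this length in the table, 35% held the MYB core, 12.5% the X-box half-site and 4.59% the joined letters, on either strand. Tcfl5 held 3 MYB cores, 140, 83 and 22 bases before its start, and no X-box half-site. Rfx4 held 1 MYB core, 40 bases before the start in one of its pair of windows, and neither the X-box half-site nor the joined letters. Neither the MYB core nor the X-box half-site occurred in the windows of Fhl5, Brdt or Sox30. The half-site of the cAMP response element, TGACG, was in windows of Rfx1, Rfx2 and Rfx4 and in 20.8% of all windows, and the full element TGACGTCA, in 1.79% of all, was in none of the members' windows. An E-box, CACGTG, was found 78 bases before the start of Brdt, against 7.15% of all windows. The SOX core ACAAT was in windows of Fhl5, Rfx4 and Sox30 and in 31% of all windows. The windows of Rfx2 and Tcfl5 were 75.7% and 73% G or C, and that of Fhl5 42.7%. These matches describe letters and were not tested as binding sites.

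All 10 genes were lower in Stra8-deficient testes, over a wide range of sizes. Levels are CPM, reads relative to library size after TMM scaling in edgeR. Fold changes are given on the log2 scale as Stra8-deficient over wild type, ± an approximate standard error. A gene is called where the adjusted p of edgeR's quasi-likelihood test is under 0.05. All 10 were called lower, against 36.7% of the 15018 genes tested (75.8% were called in either direction), and in all 10 the 3 Stra8-deficient libraries lay below the 3 wild-type libraries, against 80.2% of genes whose libraries did not overlap in either direction. The median log2 fold change of the 10 was -3.62, and that of all genes tested 0.11. Mean levels of the 10 spanned 0.309 to 124 CPM in Stra8-deficient testes, against 69.6 to 732 CPM in wild-type testes. CPM is not corrected for gene length. Per kilobase of exon the spans were 0.279 (Fhl5) to 52.0 (Tcfl5) in Stra8-deficient and 7.47 (Rfx3) to 227 (Fhl5) in wild-type testes. The genes lay further apart in the Stra8-deficient testes on both scales, less so per kilobase. The low end there rests on 12 reads of Fhl5. In whole-testis RNA, fewer cells of a type and less RNA per cell cannot be told apart. Libraries held 7883466 to 12425689 gene reads (Stra8-deficient) and 6733128 to 8937224 (wild type). A floor of 3 reads, the most that 0 reads leave possible by counting error alone, equals 0.243 to 0.447 CPM before TMM scaling.

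**Figure D1:**
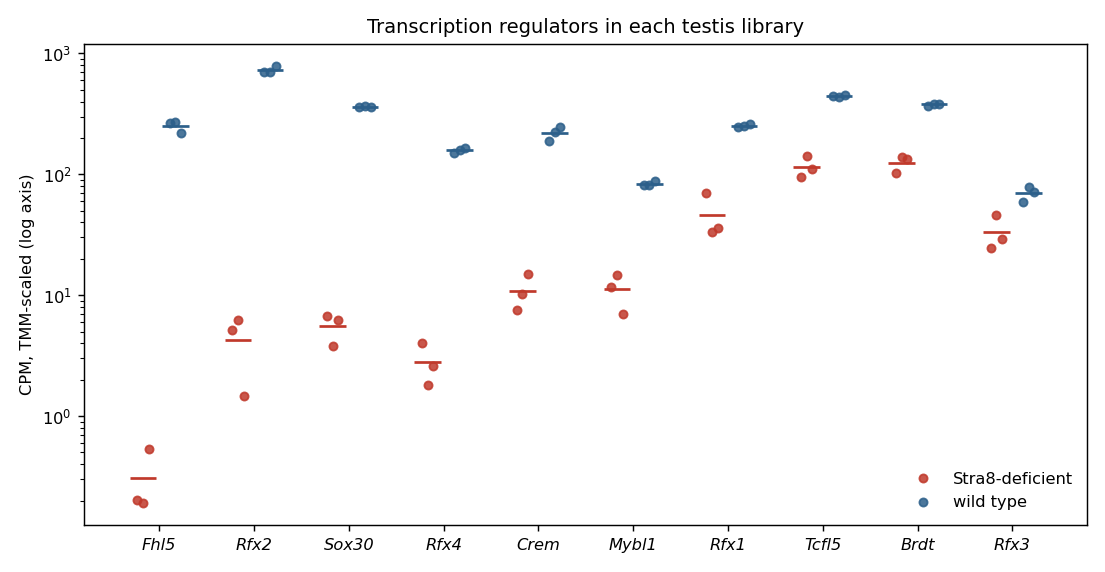
CPM of the 10 regulators (log axis) in each library, ordered by log2 fold change, with Stra8-deficient libraries left of wild-type libraries for each gene. Points are single libraries and lines are means of 3. Fhl5 averaged 0.309 CPM in Stra8-deficient testes, against 251 CPM in wild-type testes, while Rfx3 averaged 33.5 CPM in Stra8-deficient and 69.6 CPM in wild-type testes.

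Crem and its coactivator gene Fhl5 differed in how far they fell. Crem encodes activators and repressors from different promoters and exons, which gene counts add together. It was counted 75, 107 and 223 times in the Stra8-deficient libraries, or 7.53, 10.2 and 14.9 CPM, against 1205, 1577 and 1351 reads, or 188, 223 and 248 CPM, in the wild-type libraries. The third Stra8-deficient library was the highest of its group and still lay more than 10-fold below each wild-type library. Crem fell by 4.32 ± 0.28 on the log2 scale (adjusted p = 1.13e-06 in edgeR's quasi-likelihood test), which left it at 4.96% of its wild-type level. Fhl5, whose LIM-domain product activates CREM without the usual phosphorylation, was counted 2, 2 and 8 times in the Stra8-deficient libraries against 1699, 1910 and 1190 in the wild-type libraries. The first 2 of these counts are below the limit of 3 reads. The levels were 0.201, 0.191 and 0.536 CPM in Stra8-deficient against 265, 270 and 218 CPM in wild-type libraries. Fhl5 fell by 9.50 ± 0.34 (edgeR, adjusted p = 3.85e-08), the largest fall among the 10 genes, and the value was -10.22 without the third Stra8-deficient library.

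The genes that work with or beside CREM did not move as one. Among 14 relatives, coactivators and cofactors 4 were lower, 4 higher and 6 not called, with a median of 0.18. Of all genes tested, 36.7% were lower and 39% higher, so this mix does not set the list clearly apart. The count of higher genes on the list was 7 without the third Stra8-deficient library. The largest fall was that of Fhl4, a testis LIM-only relative of Fhl5, at 5.02, 5.91 and 2.95 CPM in Stra8-deficient against 3850, 4239 and 3915 CPM in wild-type libraries (-9.77 ± 0.35; edgeR, adjusted p = 3.95e-08). The largest rise was that of Fhl3, another LIM-only gene, at 13.5, 3.62 and 5.29 CPM in Stra8-deficient against 0.625, 0.847 and 0.734 CPM in wild-type libraries (3.31 ± 0.60; edgeR, adjusted p = 8.41e-04), or 2.54 with Stra8-deficient replicate 1 left out. All 8 known CREM targets of spermatids were lower, with a median of -12.06. The lowest of them, the protamine gene Prm2, had 9 reads in the first Stra8-deficient library and 0 in the others, against 45419 to 66280 in the wild-type libraries. All 8 targets are also stage markers in the lists used below. Ldhc is among those of pachytene spermatocytes and Tnp1 among those of round spermatids. Prm1, Prm2, Tnp2, Odf1, Smcp and Gapdhs are among those of elongating spermatids. The falls of targets and of markers are therefore not separate observations, and CREM activity was not measured.

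Because a gene's share within its own family does not change when a library is rescaled, the RFX, CREB, FHL and MYB families were also compared within libraries. Levels here are RPKM, CPM per kilobase of exon. Crem made up 15.8 ± 1.76% of the summed RPKM of Crem, Creb1 and Atf1 in Stra8-deficient testes and 82.4 ± 2.14% in wild-type testes (± SD, 3 libraries of each genotype). No library of one genotype came near the range of the other, and exact two-sided permutation gave p = 0.1, the smallest that 3 against 3 libraries allow. Creb1, the widely expressed relative, held 54.5 ± 10.8% of the same sum in Stra8-deficient and 6.63 ± 0.632% in wild-type libraries, and was itself called higher at 38.4, 85.7 and 77.4 CPM in Stra8-deficient against 30.3, 31.2 and 31.4 CPM in wild-type libraries (1.12 ± 0.29; edgeR, adjusted p = 0.00601). Atf1, the remaining relative, was not called (-0.55 ± 0.29; edgeR, adjusted p = 0.115). In the FHL family Fhl5 held 0.493 ± 0.408% in Stra8-deficient testes, against 16.6 ± 1.45% in wild-type testes (exact permutation p = 0.1), and Fhl4 held 2.04 ± 0.373% in Stra8-deficient and 82.4 ± 1.53% in wild-type libraries. Fhl1, a muscle and general LIM-only gene, held 82.0 ± 2.66% of the family in Stra8-deficient testes, against 0.554 ± 0.0194% in wild-type testes.

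**Figure D2:**
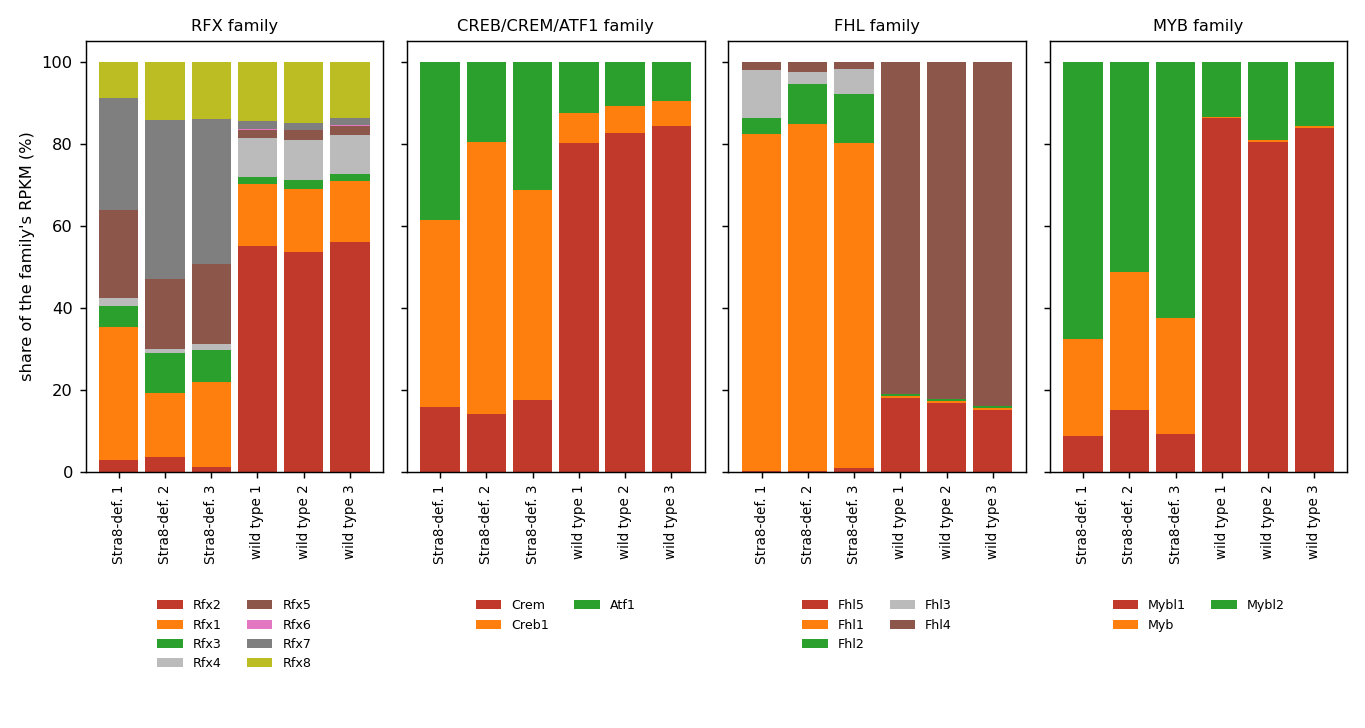
Share of each family's summed RPKM held by each gene, in percent, in single libraries, with Stra8-deficient libraries left of wild-type libraries. The lowest, red segment of each bar is Rfx2, Crem, Fhl5 or Mybl1. Crem fell to 15.8% of its family in Stra8-deficient testes against 82.4% in wild type, Mybl1 to 11.0% against 83.5%, and Rfx2 to 2.56% against 54.9%.

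The 4 RFX genes of the set fell to very different degrees. RFX factors share a winged-helix domain that binds X-boxes, and several of them drive genes of cilia and flagella. Rfx2, which round spermatids need to mature and which had the highest wild-type CPM of the 10 genes, was counted 51, 65 and 22 times in the Stra8-deficient libraries against 4510, 4974 and 4304 in the wild-type libraries. That is 5.12, 6.19 and 1.47 CPM in Stra8-deficient against 704, 702 and 789 CPM in wild-type libraries, with the lowest value in the deepest library. Rfx2 fell by 7.45 ± 0.50 (edgeR, adjusted p = 1.32e-06). Rfx4, known from brain development and with transcripts in testis, had 40, 19 and 39 reads in Stra8-deficient against 961, 1128 and 907 in wild-type libraries, or 4.02, 1.81 and 2.61 CPM in Stra8-deficient against 150, 159 and 166 CPM in wild-type libraries (-5.82 ± 0.29; edgeR, adjusted p = 2.05e-07). Both genes stayed below 3% of their mean wild-type level in each Stra8-deficient library.

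Rfx1 and Rfx3, which many tissues express, fell less. Rfx1 was counted 693, 350 and 536 times in the Stra8-deficient libraries against 1577, 1765 and 1427 in the wild-type libraries, or 69.6, 33.4 and 35.9 CPM in Stra8-deficient against 246, 249 and 262 CPM in wild-type libraries. The first Stra8-deficient library stood above the other two, and the genotypes did not overlap (-2.45 ± 0.29; edgeR, adjusted p = 5.17e-05). An antisense gene, C330011M18Rik, overlaps an exon of Rfx1 and was not analysed here. Rfx3, a regulator of ciliogenesis, had 246, 486 and 439 reads in the Stra8-deficient and 376, 559 and 388 in the wild-type ones. On the CPM scale these were 24.7, 46.3 and 29.4 in Stra8-deficient against 58.7, 78.9 and 71.2 in wild-type libraries, the smallest gap between genotypes among the 10 genes. The log2 fold change of Rfx3 was -1.06 ± 0.26 (edgeR, adjusted p = 0.00459), and with library size alone in place of TMM it was -0.44 and not called.

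The make-up of the RFX family differed between the genotypes. Its 8 genes summed to 47.6 ± 5.87 RPKM in Stra8-deficient testes, against 397 ± 19.8 RPKM in wild-type testes. Rfx2 held 2.56 ± 1.33% of that sum in Stra8-deficient testes and 54.9 ± 1.20% in wild type, and Rfx4 held 1.42 ± 0.520% in Stra8-deficient testes and 9.54 ± 0.195% in wild type. Rfx1 held 22.9 ± 8.53% in Stra8-deficient testes and 15.1 ± 0.256% in wild type, and Rfx8 held 12.3 ± 2.97% in Stra8-deficient testes and 14.3 ± 0.637% in wild type. The largest share in Stra8-deficient testes was that of Rfx7, at 33.8 ± 5.98% against 1.74 ± 0.125% in wild type, and Rfx5 held 19.4 ± 2.15% in Stra8-deficient testes against 2.29 ± 0.176% in wild type. Exact permutation gave p = 0.1 for each of these shares except that of Rfx8 (p = 0.3). The share of Rfx3 was also higher in Stra8-deficient testes, at 7.56 ± 2.31% against 1.88 ± 0.267% in wild type, although its level was lower. Of the 5 tested genes of the family and its partners outside the set, Rfx8 was lower (-3.29 ± 0.21) and Rfx7 higher (1.21 ± 0.19; edgeR, adjusted p = 2.82e-04). Rfx5, whose product switches on MHC class II genes, and its partner genes Rfxap and Rfxank were not called, at 0.02 ± 0.19, 0.09 ± 0.19 and 0.18 ± 0.23. With library size alone all 3 were called higher, at 0.64, 0.71 and 0.79 (edgeR, adjusted p = 0.0151, 0.00675 and 0.0104). Rfx6, known from endocrine pancreas, was too low to test, with 1 read in the Stra8-deficient and 43 in the wild-type libraries.

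Of 8 genes known as RFX targets, 6 were lower, against 36.7% of all genes tested. Of the others 1 was higher and 1 not called, and the median of the 8 was -2.92. Foxj1, the master regulator of motile cilia, had the largest fall, at 1.00, 0.286 and 0.536 CPM in Stra8-deficient against 128, 143 and 152 CPM in wild-type libraries (-7.85 ± 0.34; edgeR, adjusted p = 9.59e-08). The one that rose was Dnahc11, a heavy chain of the motile cilium, at 12.7, 38.5 and 13.7 CPM in Stra8-deficient against 2.34, 2.12 and 3.12 CPM in wild-type libraries (3.10 ± 0.50; edgeR, adjusted p = 3.90e-04), which was 2.35 without the second Stra8-deficient library.

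Mybl1, the regulator of pachytene genes and of piRNA precursors, was counted 117, 154 and 105 times in the Stra8-deficient libraries against 520, 579 and 477 in the wild-type ones. On the CPM scale these were 11.7, 14.7 and 7.03 in Stra8-deficient against 81.2, 81.8 and 87.5 in wild-type libraries (-2.91 ± 0.28; edgeR, adjusted p = 1.24e-05). Within the MYB family Mybl1 held 11.0 ± 3.51% of the RPKM in Stra8-deficient testes, against 83.5 ± 2.88% in wild-type testes (exact permutation p = 0.1). The family as a whole summed to 20.6 ± 5.88 RPKM in Stra8-deficient testes, against 20.1 ± 1.05 RPKM in wild-type testes, a difference smaller than the spread among the Stra8-deficient libraries. Mybl2, the MYB gene of dividing cells, held 60.4 ± 8.35% of it in Stra8-deficient against 16.0 ± 2.83% in wild-type libraries, and was higher at 66.4, 36.6 and 35.0 CPM in Stra8-deficient against 9.21, 14.1 and 11.9 CPM in wild-type libraries (1.96 ± 0.31; edgeR, adjusted p = 3.31e-04). Myb, best known from blood progenitors, rose the most on its list, at 24.1, 24.9 and 16.3 CPM in Stra8-deficient against 0.312, 0.424 and 0.367 CPM in wild-type libraries (5.83 ± 0.38; edgeR, adjusted p = 1.21e-06). Of 7 MYB relatives and partners in the MuvB complex 3 were higher, none lower and 4 not called. Of all genes tested, 39% were higher and 36.7% lower.

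Of 9 genes known as A-MYB targets in spermatocytes, 5 were lower, against 36.7% of all genes tested. None was higher and 4 were not called, with a median of -1.18 for the 9. The largest fall was that of Tdrd6, a tudor protein of the chromatoid body, with 30, 20 and 30 reads in Stra8-deficient against 12357, 13780 and 10314 in wild-type libraries (-9.70 ± 0.29; edgeR, adjusted p = 2.71e-08). With library size alone 3 of the 9 were called higher, so the count of rising targets depends on the scaling.

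Tcfl5 and Brdt kept the highest levels of the set in Stra8-deficient testes. Tcfl5 was counted 955, 1489 and 1638 times in the Stra8-deficient libraries against 2844, 3108 and 2463 in the wild-type libraries, or 95.9, 142 and 110 CPM in Stra8-deficient against 444, 439 and 452 CPM in wild-type libraries. Tcfl5 fell by 1.94 ± 0.19 (edgeR, adjusted p = 1.76e-05). An exon of Col9a3 overlaps Tcfl5 on the other strand, and without stated strand handling their reads cannot be told apart there. Col9a3 itself was at 22.3, 7.91 and 6.50 CPM in Stra8-deficient against 18.9, 12.6 and 15.6 CPM in wild-type libraries and was not called (-0.36 ± 0.46; edgeR, adjusted p = 0.486). Brdt had 1013, 1447 and 1996 reads in Stra8-deficient against 2365, 2712 and 2098 in wild-type libraries, or 102, 138 and 134 CPM in Stra8-deficient against 369, 383 and 385 CPM in wild-type libraries (-1.61 ± 0.18; edgeR, adjusted p = 3.68e-05). Per kilobase, Tcfl5 made up 51.8 ± 4.67% and Brdt 24.6 ± 2.84% of the summed RPKM of the 10 regulators in Stra8-deficient testes, against 19.9 ± 0.376% and 7.44 ± 0.115% in wild-type testes. Fhl5 held 0.287 ± 0.193% of the same sum in Stra8-deficient testes and 22.5 ± 2.57% in wild type, and Rfx2 held 1.26 ± 0.690% in Stra8-deficient testes and 21.6 ± 1.46% in wild type.

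Brdt belongs to the BET family of bromodomain proteins, whose other members are expressed in most cells. Of the relatives reported here, which are not the whole family, Brd3 was lower (-1.30 ± 0.19; edgeR, adjusted p = 2.28e-04) and Brd2 lower (-0.71 ± 0.24; edgeR, adjusted p = 0.0223). The call of Brd2 was lost when any 1 wild-type library or Stra8-deficient replicate 2 or 3 was left out (adjusted p = 0.0518 to 0.0650), with upper-quartile factors (-0.43, adjusted p = 0.131) and with library size alone (-0.083, adjusted p = 0.767).

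Sox30, which haploid germ cells need to progress, was counted 67, 40 and 93 times in the Stra8-deficient libraries against 2323, 2599 and 1960 in the wild-type libraries. These equal 6.73, 3.81 and 6.23 CPM in Stra8-deficient against 363, 367 and 360 CPM in wild-type libraries, with the smallest wild-type coefficient of variation of the set (1.03%). Sox30 fell by 6.02 ± 0.26 (edgeR, adjusted p = 9.66e-08), to 1.54% of its wild-type level.

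Ordered by fold change, the genes ran from Fhl5 through Rfx2, Sox30, Rfx4, Crem, Mybl1, Rfx1, Tcfl5 and Brdt to Rfx3. Neighbours in this order were compared by their read ratio within each library, which no scaling changes. The order came from these same libraries, so the direction of each mean difference was largely fixed beforehand. No other gene pairs were compared, so the count below has no share beside it and is no test of the order. In 5 of the 9 neighbouring pairs the ratios of the genotypes did not overlap: Rfx2 to Sox30, Rfx4 to Crem, Crem to Mybl1, Tcfl5 to Brdt and Brdt to Rfx3. In the other 4 the ratios overlapped, so that Fhl5 and Rfx2, Sox30 and Rfx4, Mybl1 and Rfx1, and Rfx1 and Tcfl5 could not be put in order beyond the spread of these libraries. The overlap of Fhl5 with Rfx2 came from the third Stra8-deficient library, where Fhl5 was at its highest and Rfx2 at its lowest, and Fhl5 had 8 reads there.

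Marker sums of the germ cell stages are given beside these levels, as percent of the wild-type mean on the same CPM scale. Markers of leptotene and zygotene spermatocytes stood at 48.6% in Stra8-deficient testes, those of pachytene spermatocytes at 0.951%, of round spermatids at 0.248% and of elongating spermatids at 0.0178%. Rfx3 (48.1%), Brdt (32.8%), Tcfl5 (26.0%), Rfx1 (18.3%), Mybl1 (13.4%), Crem (4.96%), Rfx4 (1.77%) and Sox30 (1.54%) lay above the pachytene sum, Rfx2 (0.582%) between the pachytene and round spermatid sums on average, and Fhl5 (0.123%) between the round and elongating sums. In the third Stra8-deficient library Rfx2 was at 0.201%, below the round spermatid sum of 0.258% there. Single markers spread widely around these sums. Leptotene and zygotene markers ran from 7.43% (Spo11) to 1145% (Mei4) of the wild-type mean. Pachytene markers ran from 0.00601% (Adam2) to 8.41% (Clgn), and round spermatid markers reached 1.81% (Spaca1). Rfx3, Brdt, Tcfl5, Rfx1 and Mybl1 lay within the wide leptotene and zygotene range. Crem, Rfx4, Sox30, Rfx2 and Fhl5 lay within the pachytene range, so the sums do not place a gene at a stage. All 10 pachytene, all 10 round and all 8 elongating markers were lower, 1 of the round spermatid markers had 0 reads in the Stra8-deficient libraries, and 6 of 10 leptotene and zygotene markers were lower, with 1 higher. Sertoli cell markers were at 4.79% to 36.7% of the wild-type mean in single Stra8-deficient libraries, Leydig cell markers at 1.70% to 251%, macrophage markers at 44.4% to 160%, endothelial markers at 142% to 376% and peritubular markers at 107% to 273%, while all 10 spermatogonial markers were higher. Of these somatic lists 8 of 9 Sertoli markers were lower, none of 7 Leydig markers was called, 5 of 7 macrophage markers were higher and 1 lower, 3 of 5 endothelial markers were higher, and 1 of 5 peritubular markers was higher and 1 lower. The macrophage marker that was lower, Aif1, averaged 10.9 CPM in Stra8-deficient testes, against 336 CPM in wild-type testes, where the 7 markers summed to 426 CPM (-4.92 ± 0.82; edgeR, adjusted p = 0.00108). Over all genes tested, 36.7% were lower and 39% higher. The part of cell make-up in the regulators' levels was not tested.

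**Figure D3:**
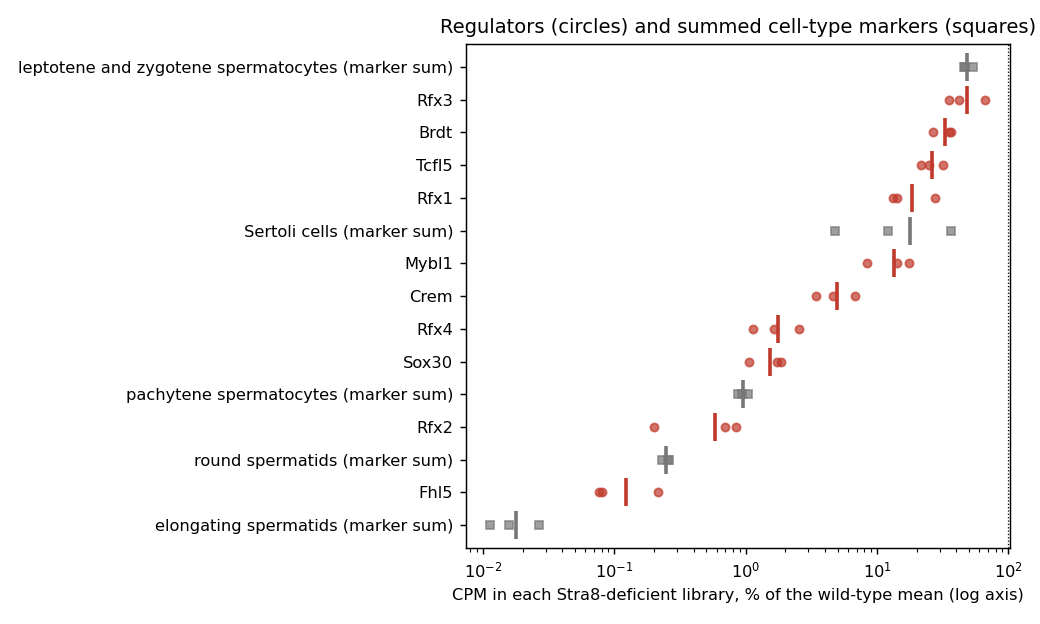
Level in each Stra8-deficient library as percent of the wild-type mean CPM (log axis) for the 10 regulators (circles) and for summed marker lists (squares), with ticks at the mean of 3 libraries and a dotted line at the wild-type mean. Fhl5, at 0.123%, is the lowest regulator and Rfx3, at 48.1%, the highest.

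The regulators varied more among Stra8-deficient than among wild-type testes. Their median coefficient of variation was 34.5% in the Stra8-deficient group and 4.67% in the wild-type group, against medians over all genes tested of 28.3% in the Stra8-deficient and 9.72% in the wild-type group. In Stra8-deficient testes Brdt varied least (15.9%) and Fhl5 (63.6%) and Rfx2 (58.0%) varied most, both with few reads. The authors' deposited table of their own comparison gives log2 ratios of -9.56 for Fhl5 and -1.05 for Rfx3, and places the other 8 genes between these values.

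The fall of 4 genes held under every scaling tried, and that of the others depended on it. TMM, RLE and upper-quartile factors put all 10 genes below 0 and called each of them lower. Scaling to the summed Sertoli cell markers, which assumes that Sertoli cell RNA is equal in both genotypes, moved the median of all genes from 0.11 to 3.45. Most of that sum was 1 gene, Clu, with 1358 of 1875 CPM in wild-type and 246 of 334 CPM in Stra8-deficient testes. With TMM the single Sertoli markers ranged from -0.31 (Wt1) to -4.71 (Fshr), so the values below depend on that choice of markers. Fhl5 (-6.95), Rfx2 (-3.68), Sox30 (-2.86) and Rfx4 (-2.65) were still called lower, Crem (-1.08) was not called, Rfx1, Mybl1, Brdt and Tcfl5 changed sign and were not called, and Rfx3 was called higher (2.57; edgeR, adjusted p = 0.00907).

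**Figure D4:**
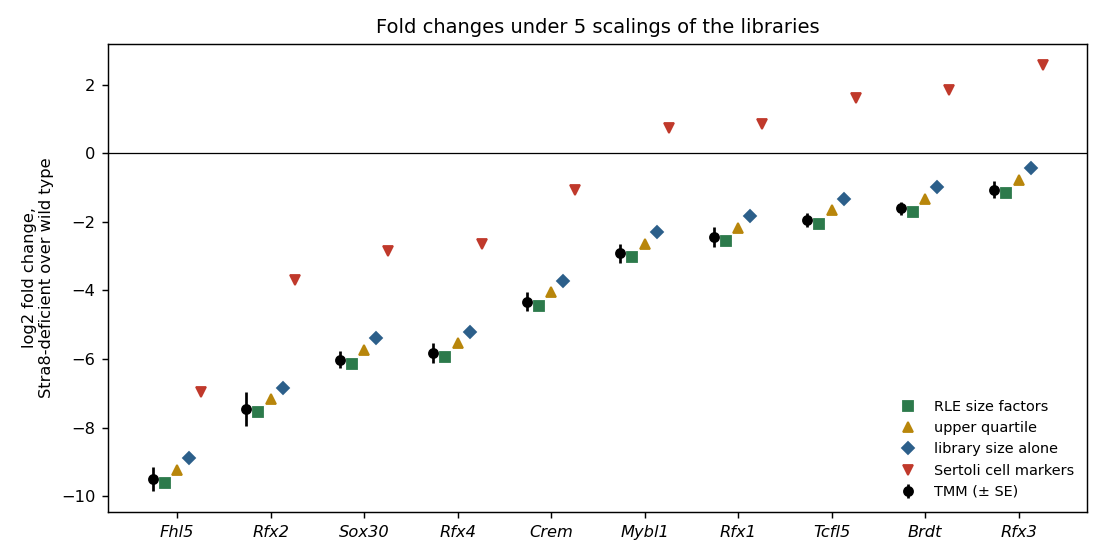
Log2 fold changes of the 10 regulators, Stra8-deficient over wild type, under 5 scalings of the libraries, with standard errors for TMM. Fhl5, Rfx2, Sox30, Rfx4 and Crem lie below 0 under all 5, and the remaining 5 lie above 0 only when scaled to Sertoli cell markers.

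Other genes known to regulate transcription or mRNA maturation at these stages gave a mixed picture. Of 16, 10 were lower, 2 higher and 4 not called, against 36.7% lower and 39% higher over all genes tested. The median of the 16 was -1.90. Hsfy2, a heat-shock-factor-like gene, had 0 reads in the Stra8-deficient libraries against 738, 921 and 601 reads in wild type, which is at least 1408-fold lower against 3 reads over the group. Egr4, a zinc-finger gene of the early growth response family, rose the most, at 520, 108 and 183 CPM in Stra8-deficient against 20.5, 17.5 and 13.8 CPM in wild-type libraries (3.97 ± 0.59; edgeR, adjusted p = 3.76e-04), and at 3.04 without the first Stra8-deficient library.

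**Figure D5:**
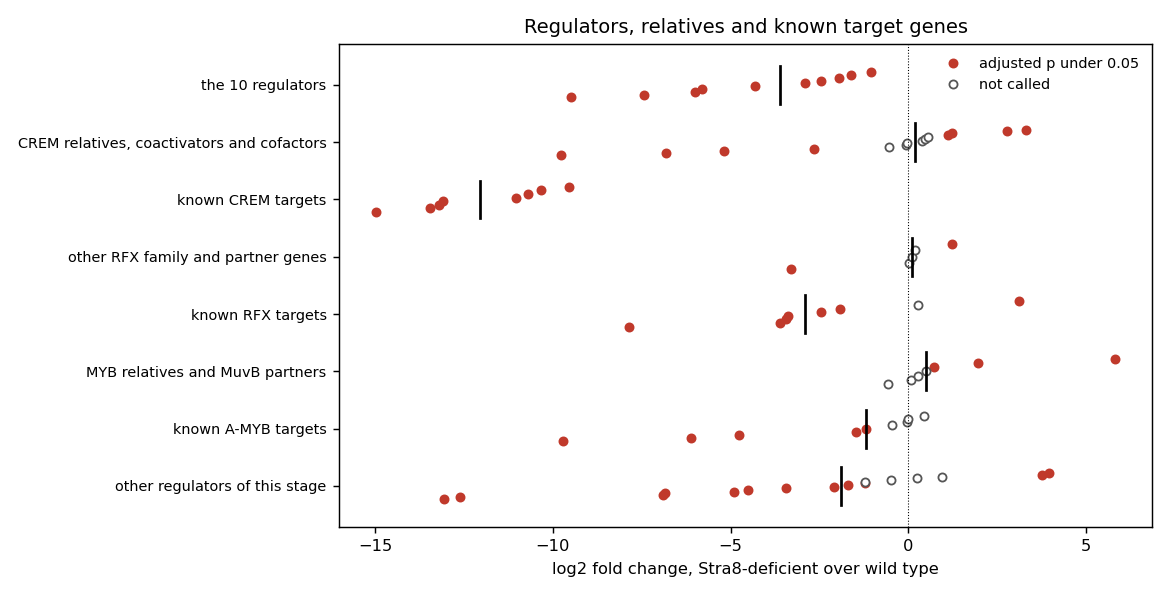
Log2 fold change of each tested gene, Stra8-deficient over wild type, in the set of 10 regulators and in lists of relatives, known targets and other regulators. Filled points passed an adjusted p under 0.05 in edgeR, open points did not, and bars mark medians, which are -3.62 for the 10 regulators and -12.06 for the known CREM targets.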

How the data were processed

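The submitters' processing notes name mm9 as the build and, as tools, HTSeq, TopHat and edgeR. For their versions and settings, for strand handling and for the annotation, no statement was found. The deposited counts are raw whole reads per gene symbol, 1 file per library. The authors' own comparison was deposited as log2 ratios and log2 average abundances with nominal and corrected p-values. HTSeq's counters of reads outside genes (20.9% to 34.5% of reads) were left out. The third Stra8-deficient file lists 23285 symbols and the others 22055, so the 21786 shared symbols were used.

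Genes passing filterByExpr (15018) were compared by edgeR's quasi-likelihood F test with TMM factors (1.21 to 1.27 in Stra8-deficient, 0.796 to 0.813 in wild-type libraries) and genotype as the one term, with Benjamini-Hochberg adjustment over all of them (edgeR 4.0.16, R 4.3.3). The fit was also run on simulated data with few changed genes and equal spread in both genotypes. The real data differ in both respects, so that run cannot judge the calls made here. All 10 regulators passed the filter. Standard errors are the fold change over the square root of F. RPKM used exon lengths of GENCODE M21 (GRCm38), so lengths are approximate for mm9 counts. An alternative test used DESeq2 1.42.0. Families, neighbouring ratios and the joined motif were chosen after seeing the files. The members and lists were chosen with earlier results of these data known. Every member is named, and from each list the called gene with the largest change in each direction; Creb1, Atf1, Fhl1, Mybl2, Aif1 and Col9a3 were named after their values were seen. The labels describe separate males, and no replicate pair agreed within sampling noise (chi-square per degree of freedom at least 2.74). One relative in the gene lists is not reported here. Columns without a matching sample numbered 0.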

Additional observations from a re-analysis of the deposited data

How the results depend on the processing

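Each of the 10 regulators was refitted under 13 alternatives. Of the 130 fitted values 123 kept direction and call, 2 kept direction and lost the call (Crem scaled to Sertoli cell markers, -1.08, and Rfx3 with library size alone, -0.44), and 5 changed sign. All 5 came with scaling to Sertoli cell markers: Rfx1 0.85, Rfx3 2.57, Mybl1 0.74, Brdt 1.84 and Tcfl5 1.60. That scaling left 4 regulators called lower and called 1 higher, against 10 and 0 with TMM, and library size alone called 9 lower. The Sertoli marker sum itself differed several-fold among the Stra8-deficient libraries. Leaving out any 1 library kept all 10 calls. DESeq2 and the fit without a low-count filter also called all 10 lower. Over all genes, scaling to Sertoli cell markers called 10753 higher and 1326 lower, against 5860 and 5519 with TMM and 7550 and 4326 with library size alone.

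Replicate numbers in the titles did not pair the samples: deviations of same-numbered libraries correlated at -0.04 to 0.08. With a replicate block all 10 regulators were still called lower, and the block gave 5660 higher and 5558 lower genes over all.

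Among other named genes, signs turned with scaling to Sertoli cell markers for Atf1 (2.57), Rfx8 (0.23), Brd2 (2.64) and Brd3 (2.05). Values near 0 also turned: Atf1 with library size alone (0.066), Rfx5 with RLE factors (-0.091), in DESeq2 (-0.066) and without Stra8-deficient replicate 1 (-0.15) or wild-type replicate 1 (-0.06), and Rfxap with RLE factors (-0.024) and without Stra8-deficient replicate 1 (-0.0013). Leaving out 1 library at a time, Rfx5 ranged from -0.153 to 0.115 and Rfxap from -0.0013 to 0.119. Atf1 was called lower without the third Stra8-deficient library (-0.84). Several counts of called list genes moved by over 1.5 times. With library size alone and with Sertoli scaling, CREM relatives called higher numbered 8 and 10, MYB relatives 6 and 7, other RFX genes 4 and 4, RFX targets 2 and 2, A-MYB targets 3 and 5 and other regulators 4 and 7. Upper-quartile factors gave 7 CREM relatives and 1 A-MYB target called higher, as did leaving out Stra8-deficient replicate 3. Sertoli scaling left 1 RFX target, 2 A-MYB targets, 4 other regulators and 0 other RFX genes called lower. Other RFX genes called lower numbered 2, against 1, without the low-count filter, in DESeq2, and without Stra8-deficient replicate 1, 2 or 3 or wild-type replicate 2. Rfx5, Rfxap and Rfxank were called higher with Sertoli scaling (3.43, 3.44 and 3.53). Depth limits Fhl5 most, with 12 reads in all Stra8-deficient libraries together. With the longest transcript as gene length, genotype differences in the family shares of Rfx2, Crem, Fhl5 and Mybl1 moved by less than the library spread. For Crem the difference, Stra8-deficient minus wild-type, went from -66.6 to -65.1 percentage points. The shares within each genotype were not compared between the lengths. They can move further, as Crem has 4967 bases of exon but 2931 in its longest transcript. This check was not run for the other shares.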
